A study of Mus musculus with 6 samples.

Results

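H19, Igf2, Dlk1, Meg3, Rian, Mest, Peg3, Plagl1, Cdkn1c and Grb10 are 10 genes of the imprinted growth network, among 56305 genes in the table. Members were chosen by name with their measured difference between the genotypes already known, so the values of their contrast below are a description and carry no test. Liver RNA came from males aged 5 weeks, 3 WT and 3 Vps15LKO, fed ad libitum under a light-dark cycle and taken at ZT6 (Zeitgeber time, hours after lights on), and 1 polyA-selected library was made per mouse. Vps15LKO mice carry AlbCre+;Vps15 f/f, in which Cre is driven by the albumin promoter, which is active in hepatocytes, and Vps15 is the regulatory subunit of class 3 PI3K. The labels call the controls WT, and whether they carried the floxed allele or Cre is not given in the sources used here.

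At an imprinted gene, RNA is made mainly from the copy inherited from 1 parent, a choice fixed by DNA methylation set down in the germ line. Paternally expressed members of this network, such as Igf2, Dlk1 and Peg3, are mostly known as promoters of fetal growth or as transcriptional regulators, and maternally expressed members, such as H19, Cdkn1c and Grb10, mostly as brakes on it. In the liver several of them are abundant before birth and are shut down in the first weeks after it, so the adult organ normally holds little of their RNA.

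The network also carries small RNAs. H19 hosts miR-675, Meg3 and the stretch up to Mirg hold a large microRNA cluster, and Igf2 and Mest hold miR-483 and miR-335. The mature forms of miR-675, the microRNA whose hairpin drew by far the most reads, are shown with the microRNAs of the other host genes, because the hairpin reads given further on cannot tell one arm from the other. Capitals mark the seed, bases 2 to 8, and the sequences are those of RefSeq for GRCm38.p6, 5′ to 3′.
miR-675-5p: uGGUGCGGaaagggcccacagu
miR-675-3p: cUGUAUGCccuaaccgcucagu
miR-483-3p: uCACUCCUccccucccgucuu
miR-335-5p: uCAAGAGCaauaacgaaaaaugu
miR-1906: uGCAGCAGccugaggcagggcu
miR-410-3p: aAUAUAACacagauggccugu
The arms of miR-675 lie on the minus strand of chromosome 7, from 142577112 to 142577133 and from 142577078 to 142577099. On the same strand of that chromosome miR-483-3p lies from 142654932 to 142654952, inside Igf2. On the plus strand, miR-335-5p lies on chromosome 6 from 30741314 to 30741336, inside Mest, and miR-1906 and miR-410-3p lie on chromosome 12, from 109544588 to 109544609 in Meg3 and from 109743764 to 109743784 within the body of Mirg. These 6 microRNAs share no seed with each other. Of 69 microRNA genes at the member loci, 63 matched RefSeq and gave 117 mature sequences with 108 distinct seeds, and 9 seeds were shared by a pair of mature sequences.

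Windows from 250 bases before to 50 after an annotated start were held by RefSeq for 8 of the 10 members, 15 windows in all, and H19 and Cdkn1c were not among them. The windows of Grb10 and Rian are shown because they are the richest and the poorest in CpG, the dinucleotide that carries imprint methylation, and CpG is set in capitals.
Grb10 window, chr11:12037371-12037670, minus strand, GRCm38.p6: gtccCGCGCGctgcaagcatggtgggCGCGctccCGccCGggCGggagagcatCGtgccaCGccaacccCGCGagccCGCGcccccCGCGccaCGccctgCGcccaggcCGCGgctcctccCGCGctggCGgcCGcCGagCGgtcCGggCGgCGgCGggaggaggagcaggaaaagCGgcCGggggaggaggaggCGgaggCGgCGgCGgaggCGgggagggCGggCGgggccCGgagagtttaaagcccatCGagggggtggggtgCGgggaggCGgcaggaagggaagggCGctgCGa
Rian window, chr12:109603695-109603994, plus strand, GRCm38.p6: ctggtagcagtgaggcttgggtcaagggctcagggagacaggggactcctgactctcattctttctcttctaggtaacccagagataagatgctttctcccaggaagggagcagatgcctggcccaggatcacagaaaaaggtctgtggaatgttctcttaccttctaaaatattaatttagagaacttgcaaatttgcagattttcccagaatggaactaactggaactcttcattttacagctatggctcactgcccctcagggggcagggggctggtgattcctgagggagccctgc
This Grb10 window holds 45 CpG and the Rian window holds 0. The median over the 15 member windows was 13 CpG, and over all 32851 windows in the table it was 7. The E-box CACGTG, the motif that Bmal1 and Clock bind, was found on either strand in 1 of the 15 windows, that of Plagl1, and in 7.15% of all windows. The YY1 motif GCCATNTT was found in 0 of the 15 and in 6.05% of all, and TATAAA in 1 of the 15, at Meg3, and in 13.6% of all. A pair of the Mest windows overlap almost wholly, so the 15 are not separate pieces of sequence.

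The 10 genes occupy 5 chromosomes of GRCm38. On chromosome 7, minus strand, are H19 (142575529 to 142578143), Igf2 (142650766 to 142666816), Cdkn1c (143458339 to 143461050) and, far from them, Peg3 (6703892 to 6730431). On chromosome 12, plus strand, are Dlk1 (109452823 to 109463336), Meg3 (109541001 to 109571726) and Rian (109603940 to 109661716). Mest lies on chromosome 6 (30723547 to 30748465, plus strand), Plagl1 on chromosome 10 (13060504 to 13131694, plus strand) and Grb10 on chromosome 11 (11930508 to 12038683, minus strand).

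The values, called normalized counts here, are reads on each gene after division by a size factor for the library. The libraries held between 16137093 and 18110223 reads on genes, but a read counted for more in WT (1.25 to 1.35 normalized counts) than in Vps15LKO (0.707 to 0.810). Genes that reached 20 normalized counts in 3 or more livers, 15430 in all, were compared with limma on log2(normalized count + 1), and a call needed a fold of 1.2 or more and an adjusted p under 0.05. Log2 differences below are on this scale, Vps15LKO minus WT, with their standard error (SE), and they understate the change of genes with low counts. Of the genes tested, 66.5% were called, 33.5% higher and 33.0% lower in Vps15LKO liver. In 36.4% of the genes tested, every Vps15LKO liver lay above every WT liver. With all libraries scaled to the same total of reads (total-read scaling), 10301 genes were called higher and 1710 lower (66.8% and 11.1%), against 5163 and 5099, and the median log2 difference of all genes rose by 0.72. Directions of small changes therefore hold only relative to the scaling. Of the 5163 called higher, 1540 had a WT liver below 20 and so passed the filter only through their Vps15LKO livers. Genes named below for which this is so are given with no p. The gene lists set beside the members were also chosen with earlier results of these data known. Their counts and p values are therefore not independent support.

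Pik3r4, which encodes Vps15, stood at 508, 573 and 459.7 in WT livers and at 341, 362 and 355 in Vps15LKO livers (normalized counts). Its log2 difference was −0.54 (SE 0.11, adjusted p = 0.0021, limma with Benjamini-Hochberg adjustment), and it turned to 0.19 with total-read scaling. Reads from the floxed exons were not separable from the rest, so this is a weak check of the labels.

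Cell type markers moved widely between the genotypes, and the livers are bulk samples, in which fewer cells of a type and less RNA per cell cannot be told apart. Of 6 hepatocyte markers 5 were called lower, and their summed normalized counts ran from 2702030 to 3237180 in WT livers and from 775598 to 1196170 in Vps15LKO livers. Of 5 biliary markers 5 were called higher (summed level 662 to 787 in WT, 11426 to 22425 in Vps15LKO), of 7 stellate markers 7 (2917 to 3707, and 19499 to 23414), of 5 Kupffer markers 3 (3981 to 4575, and 6751 to 10722) and of 4 proliferation markers 4 (77.4 to 282, and 2069 to 2128). Of 5 endothelial markers 2 were higher and 3 lower (4888 to 5322, and 3372 to 4728), and of 4 lymphocyte markers 2 were higher (54.4 to 83.6, and 105 to 141). Ccnb1, a proliferation marker, was at 0 in 1 WT liver. These counts stand beside 33.5% of all tested genes called higher and 33.0% lower. In Vps15LKO livers the hepatocyte, biliary and stellate sums were mostly Alb, Spp1, and Col1a1 with Col3a1. Ratios of the group means of stellate markers ran from 1.48 for Lrat to 20.4 for Col1a1. Timd4, a Kupffer marker, was lower in each Vps15LKO liver than in each WT liver but was not called. The part of these shifts in the values of the imprinted genes was not tested.

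Every one of the 10 members had higher normalized counts in each Vps15LKO liver than in each WT liver, beside 36.4% of all tested genes, and since the members were chosen with this contrast known nothing is read from that count. With quantile normalization it held for 9 of the 10, Mest overlapping at 191 in WT replicate 3 and 189 in Vps15LKO replicate 3. Passing the filter were 9 of the 10, and each of the 9 was called higher, beside 33.5% of all tested genes (66.8% with total-read scaling). Dlk1 did not pass. Mest, Peg3, Rian, Cdkn1c and Grb10 reached 20 normalized counts in every liver, while H19, Igf2, Meg3 and Plagl1 passed through their Vps15LKO livers, 1 or more of their WT livers lying below 20. The ratio of the group means was over 10 for 5 members and under 5 for 3. The smallest gaps between the genotypes were those of Mest, whose lowest Vps15LKO liver was 1.15 times its highest WT liver, Plagl1 (1.49 times) and Cdkn1c (1.65 times).

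**Figure D1:**
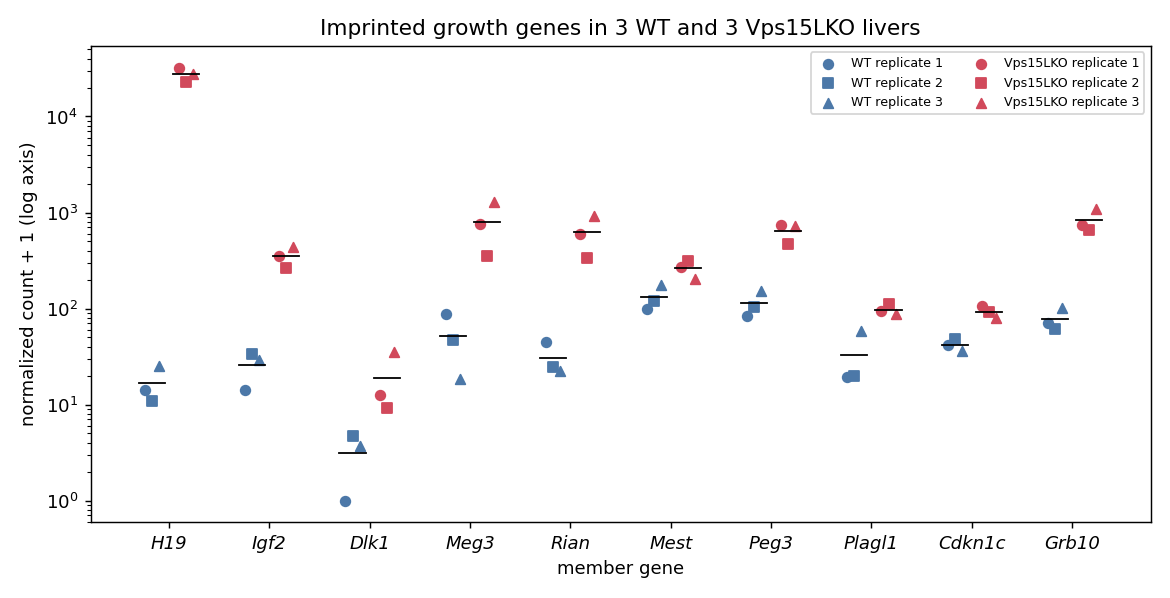
Normalized count + 1 on a log axis for the 10 members, with 1 point per liver (blue WT, red Vps15LKO, 1 marker shape per replicate number) and a black line at the mean of 3 livers. The Vps15LKO points lie above the WT points for each member, by the widest gap for H19 and the narrowest for Mest.

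H19 is a maternally expressed long non-coding RNA of fetal liver and muscle. Its normalized counts were 13.3, 9.99 and 24.3 in WT livers, and 32315, 22874 and 27715 in Vps15LKO livers. These rest on 10, 8 and 18 reads in WT and on 42317, 28227 and 39185 reads in Vps15LKO livers. The Vps15LKO livers lay within 1.41 times of each other, while the WT livers spread over 2.43 times. The means were 15.8 ± 7.48 and 27634 ± 4721 (SD, n = 3 mice each), a log2 difference of 10.76 (SE 0.28) that ran from 10.49 to 11.09 with each liver left out in turn. Per kb of exon, H19 stood at rank 15640 of all genes in WT and at rank 44 in Vps15LKO livers.

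Because of H19, the sum of the members changed its makeup. H19 took 2.15% to 3.95% of the reads on the 10 genes in WT and 85.1% to 89.8% in Vps15LKO livers. Per 1000000 reads of a library the 10 together took 19.9 to 28.3 in WT livers and 1738 to 2627 in Vps15LKO livers, and without H19 they took 19.3 to 27.1 and 177 to 381. The other 9 were thus also more abundant as a sum in each Vps15LKO liver, by a smaller factor than H19.

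Igf2 encodes the fetal insulin-like growth factor, is expressed from the paternal copy and shares enhancers with H19 on chromosome 7. It had 13.3, 32.5 and 28.3 normalized counts in WT and 348, 264 and 436 in Vps15LKO livers. All Vps15LKO values lay at least 8.13 times above the highest WT value. The means were 24.7 ± 10.1 and 349.6 ± 86.1 (SD, n = 3), with a log2 difference of 3.83 (SE 0.33). Per kb of exon, H19 was 2.33, 0.716 and 1.99 times as abundant as Igf2 in WT livers and 216, 201 and 148 times in the Vps15LKO livers. The pair, close to parity in WT, was far from it in each Vps15LKO liver.

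Meg3, Rian and Dlk1 share an imprinted domain on chromosome 12, where Meg3 and Rian are maternally expressed non-coding RNAs and Dlk1, a transmembrane protein with EGF-like repeats known from hepatoblasts, is paternally expressed. Meg3 had 87.5, 46.2 and 17.5 normalized counts in WT and 756, 348 and 1276 in Vps15LKO livers, with means of 50.4 ± 35.2 and 793 ± 465 (SD, n = 3) and a log2 difference of 4.03 (SE 0.60). Rian, which hosts small nucleolar RNAs, had 43.8, 23.7 and 21.6 in WT and 602, 336 and 929 in Vps15LKO livers, with means of 29.7 ± 12.2 and 622 ± 297 (SD, n = 3) and a log2 difference of 4.30 (SE 0.38). The genotypes did not overlap for either gene, and among Vps15LKO livers both varied more than H19 did. Meg3 spanned 4.99 times among WT livers and 3.67 times among Vps15LKO livers.

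Meg3 and Rian kept the same order of livers, replicate 1 highest and replicate 3 lowest in WT, and replicate 3 highest and replicate 2 lowest in Vps15LKO. Per kb of exon, Meg3 was 2.02, 1.96 and 0.819 times Rian in WT and 1.27, 1.04 and 1.39 times in Vps15LKO livers, so their ratio overlapped between the genotypes while both levels did not. Mirg, the microRNA host at the far end of the domain and an imprinted gene outside the member list, had 2.65, 1.25 and 0 normalized counts in WT and 38.2, 16.2 and 58.7 in Vps15LKO livers. Its order among Vps15LKO livers was that of Rian and Meg3. Its summed reads were 3 in WT and 153 in Vps15LKO, a ratio per size factor of 29.6 (95% counting interval, Clopper-Pearson, 9.94 to 145).

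Dlk1 stayed near the limit of the depth. It had 0, 3 and 2 reads in WT livers against 15, 10 and 48 in Vps15LKO livers, that is 0, 3.75 and 2.70 against 11.5, 8.10 and 33.9 normalized counts. Vps15LKO replicate 3 alone held most of its reads. The ratio of summed reads per size factor was 8.47 (95% counting interval, Clopper-Pearson, 3.47 to 26.9), which covers counting error and not the spread between mice. Rtl1 and Dio3, the other paternally expressed genes of the domain, had 0 to 5 reads in every liver.

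Mest, Peg3 and Plagl1 are paternally expressed and lie in separate domains. Mest, a protein of the alpha/beta hydrolase fold, had 98.1, 119.9 and 177 normalized counts in WT and 269.6, 315 and 204 in Vps15LKO livers. Its means of 132 ± 40.5 and 263 ± 56.1 (SD, n = 3) gave a log2 difference of 1.01 (SE 0.24). WT replicate 3 came close to Vps15LKO replicate 3, which held the lowest Mest value of its group. Copg2, on the other strand, shares 912 exonic bases with Mest and had 360, 438 and 357 reads in WT and 623, 586 and 635 in Vps15LKO livers, where Mest had 74, 96 and 131 and 353, 389 and 288. With no strand setting given, reads on the shared bases cannot be told apart, and what part of the Mest values they make up was not tested.

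Peg3, a zinc finger protein, had 83.5, 102 and 149.6 normalized counts in WT and 742, 469 and 727 in Vps15LKO livers (log2 difference 2.53, SE 0.24). Plagl1, a zinc finger transcription factor of the network, had 18.6, 18.7 and 58.0 in WT and 93.2, 109 and 86.3 in Vps15LKO livers (log2 difference 1.77, SE 0.40). The genotypes did not overlap for either, but 1 WT liver, replicate 3, stood well above the other WT livers for Plagl1. With each liver left out in turn, the log2 difference of Plagl1 ran from 1.5 to 2.30 and that of Peg3 from 2.34 to 2.76.

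Cdkn1c and Grb10 are maternally expressed and act against growth. Cdkn1c, the cyclin-dependent kinase inhibitor p57, had 41.1, 47.5 and 35.0 normalized counts in WT and 105, 90.8 and 78.5 in Vps15LKO livers. Its means were 41.2 ± 6.21 and 91.5 ± 13.5 (SD, n = 3), with a log2 difference of 1.13 (SE 0.19) that fell to 0.57 under quantile normalization. Gm44732, on the other strand, shares 625 of its 635 exonic bases with Cdkn1c. It had 12, 12 and 5 reads in WT and 53, 47 and 44 in Vps15LKO livers. Cdkn1c had 31, 38 and 26, and 138, 112 and 111. With no strand setting given, what part of the Cdkn1c values the shared bases make up was not tested. Grb10, an adaptor that binds the insulin and IGF receptors and dampens their signal, had 70.3, 60.0 and 101 in WT and 743, 656 and 1091 in Vps15LKO livers. Its log2 difference was 3.41 (SE 0.23), and its lowest Vps15LKO liver was 6.49 times its highest WT liver. Both inhibitors were higher in each Vps15LKO liver, Grb10 by the larger factor.

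Levels were compared between genes per kb of exon, counted over all annotated exons of a gene. Where a gene has many transcript forms this length can exceed that of the RNA present, so the order depends on it. In WT livers the order of mean normalized counts per kb was Mest at 33.3 ± 10.3, Cdkn1c at 20.2 ± 3.05, Grb10 at 8.48 ± 2.36, Peg3 at 8.40 ± 2.55, H19 at 6.44 ± 3.04, Igf2 at 4.31 ± 1.77, Plagl1 at 4.06 ± 2.90, Meg3 at 2.79 ± 1.94, Rian at 1.63 ± 0.671 and Dlk1 at 0.380 ± 0.342 (SD, n = 3). Neighbours in that order from Grb10 down to Rian differed by less than the SD of one of them. In Vps15LKO livers H19 stood apart at 11234 ± 1919, followed by Grb10 at 91.3 ± 25.3, Mest at 66.6 ± 14.2, Igf2 at 61.1 ± 15.0, Peg3 at 48.5 ± 11.5, Cdkn1c at 44.9 ± 6.60, Meg3 at 43.8 ± 25.7, Rian at 34.1 ± 16.3, Plagl1 at 12.3 ± 1.52 and Dlk1 at 3.15 ± 2.48 (SD, n = 3). Neighbours from Grb10 down to Rian again differed by less than the SD of one of them. By these means Mest, which shares exonic bases with Copg2, came first in WT and after H19 and Grb10 in Vps15LKO livers, where it differed from Grb10 by less than the SD of Grb10, and H19 moved from below Peg3 to the top.

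The members did not vary as one block among livers of 1 genotype. Of the 10, 5 were highest in Vps15LKO replicate 3 (Igf2, Dlk1, Meg3, Rian and Grb10) and 7 were lowest in replicate 2, while Mest, Plagl1 and Cdkn1c were lowest in replicate 3. The summed biliary markers had the order of the first 5, highest in replicate 3 (22425) and lowest in replicate 2 (11426). The summed hepatocyte markers had the reverse order, highest in replicate 2 and lowest in replicate 3, as did the summed endothelial markers (4213, 4728 and 3372 in replicates 1 to 3), Mest and Plagl1. In WT, replicate 3 was highest for 5 members (H19, Mest, Peg3, Plagl1 and Grb10) and also for the summed biliary, stellate, Kupffer, lymphocyte and proliferation markers, the last at 282 beside 77.4 and 88.8 in the other WT livers. The order of a sum did not hold for each of its markers. Among WT livers Col1a1, Col3a1 and Pdgfrb were highest in replicate 3, while Lrat, Hgf, Des and Epcam were lowest there. Cd5l, Marco and Timd4 were highest in WT replicate 2. With 3 livers a genotype these orders are descriptions, and their part in the member values was not tested.

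**Figure D2:**
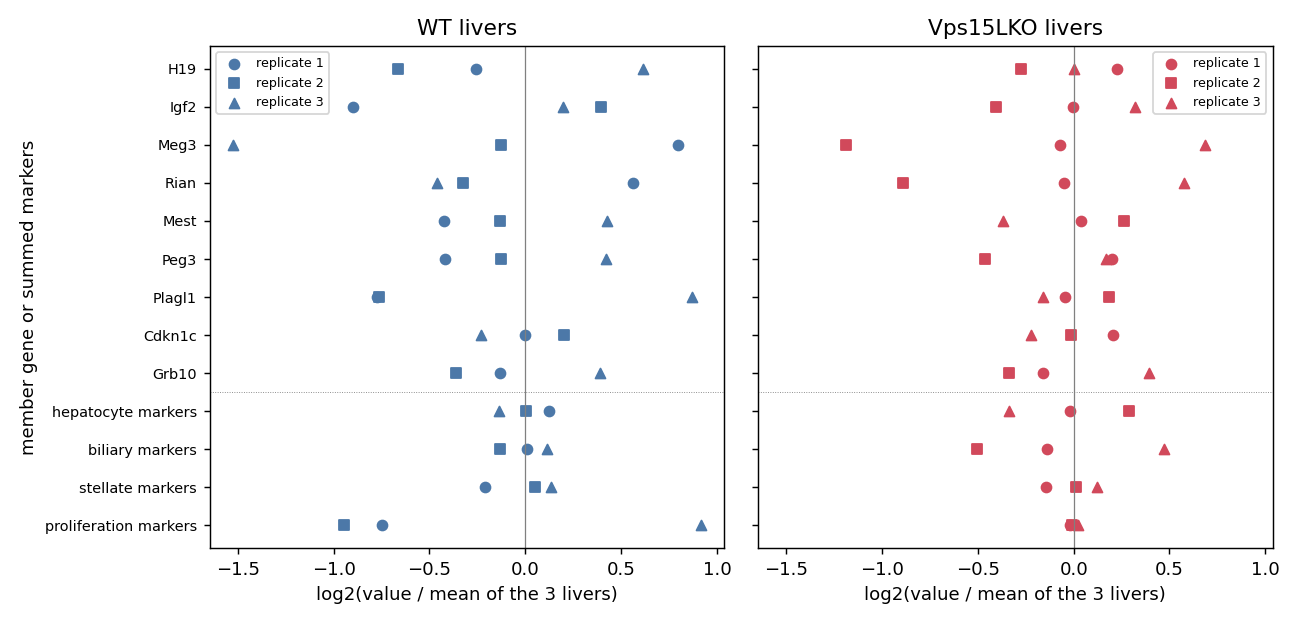
Deviation of each liver from the mean of its genotype, as log2(value / mean of the 3 livers), for 9 members (Dlk1, with 0 reads in a WT liver, is left out) and, under the dotted line, for summed marker genes. WT livers are on the left and Vps15LKO livers on the right. Meg3 and Rian spread most among Vps15LKO livers, in the order of the biliary markers, and WT replicate 3 is high for Plagl1 and, among the summed markers, farthest above its group for the proliferation markers.

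The small RNA genes inside the members were counted with their hosts, so their reads are not separate evidence. Mir675 lies wholly within an exon of H19 and had 1 read in each WT liver and 4919, 3130 and 4745 reads in the Vps15LKO livers, 11.1% to 12.1% of the reads on H19 there. Gm27786 and Gm27483, annotated on the other strand within H19, had 1971, 1289 and 1588 and 2407, 1529 and 1923 reads in the Vps15LKO livers. Each of the 3 features took a near-constant share of the H19 reads across the Vps15LKO livers. Gm24895, a small nucleolar RNA gene in Rian, had 3, 1 and 1 reads in WT and 60, 48 and 82 in Vps15LKO livers. Gm49394, a model that shares 3596 of its 4738 exonic bases with Igf2, had 446, 319 and 611 reads where Igf2 had 456, 326 and 617. Of 35 features that overlap a member, 20 share exonic sequence with it and 14 of those had reads, 5 of them on the other strand. The sources used here give no strand setting, and without one reads of a gene and of its antisense partner cannot be told apart.

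The microRNA cluster of chromosome 12 was nearly silent in these libraries. Of 66 microRNA genes from Dlk1 to Mirg, 8 had any read, namely Mir1906-1, Mir770, Mir433, Mir382, Mir377, Mir412, Mir410 and Mir3072. Mir1906-1, which lies in an exon of Meg3, had 5, 1 and 0 reads in WT and 51, 14 and 58 in Vps15LKO livers, in the order of Meg3 itself. Mir410 had 6, 3 and 0 reads in the Vps15LKO livers and 0 in WT, and the others had at most 4 in any liver. Mir483 and Mir335 had 0 reads. PolyA selection retains host transcripts and precursors rather than mature microRNAs, whose levels were not measured.

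Around the members, 184 annotated genes outside the members and the list of other imprinted genes lie within 200 kb of a member body, and 24 of them passed the filter. Of those 24, 16 were called higher and 1 lower, with a median log2 difference of 1.60, where 33.5% and 33.0% of all tested genes were called and the median was −0.02. Of the 16, 11 passed the filter only through their Vps15LKO livers. Without the 6 that overlap a member, a choice made after the data were seen, 10 of 18 were higher and 1 lower, with a median of 1.12. With the 11 listed imprinted genes of the window included, of which 6 passed the filter, a choice also made after the data were seen, 19 of 30 were higher and 3 lower, with a median of 1.23. Within 500 kb 25 of 49 were higher and 13 lower, with a median of 0.47. A filter of 20 in every liver kept 13 of the 200 kb neighbours and left 6 of them higher, beside 3650 of 13101 genes. By the naming rule for neighbours, the features past the 3 in H19 and the 1 in Rian were led by E230032D23Rik, a non-coding gene 166974 bases from Cdkn1c, with 3, 1 and 2 reads in WT and 100, 47 and 124 in Vps15LKO livers (ratio per size factor 26.2, 95% counting interval, Clopper-Pearson, 11.9 to 72.1). It passed the filter only through its Vps15LKO livers.

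Other neighbours are named here after their values were seen, to place the members in their surroundings. Lsp1, a leukocyte protein gene 80662 bases from H19, had a log2 difference of 2.68 (SE 0.15, adjusted p = 2.2e-06, limma), and Mrpl23, which lies between Lsp1 and H19 and encodes a mitochondrial ribosomal protein, 0.16 (SE 0.10, adjusted p = 0.196, limma). Near Grb10, Ikzf1, a lymphoid transcription factor, rose by 2.10 (SE 0.16, adjusted p = 1.2e-05, limma) and Cobl, an actin regulator, fell by 0.80 on the log2 scale (SE 0.22, adjusted p = 0.011, limma). Cobl, the only neighbour called lower, was not called lower with total-read scaling. Near Plagl1, Phactr2 rose, Stx11, which passed the filter only through its Vps15LKO livers, was at 2.02, and Ltv1, Sf3b5 and Utrn were not called.

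**Figure D3:**
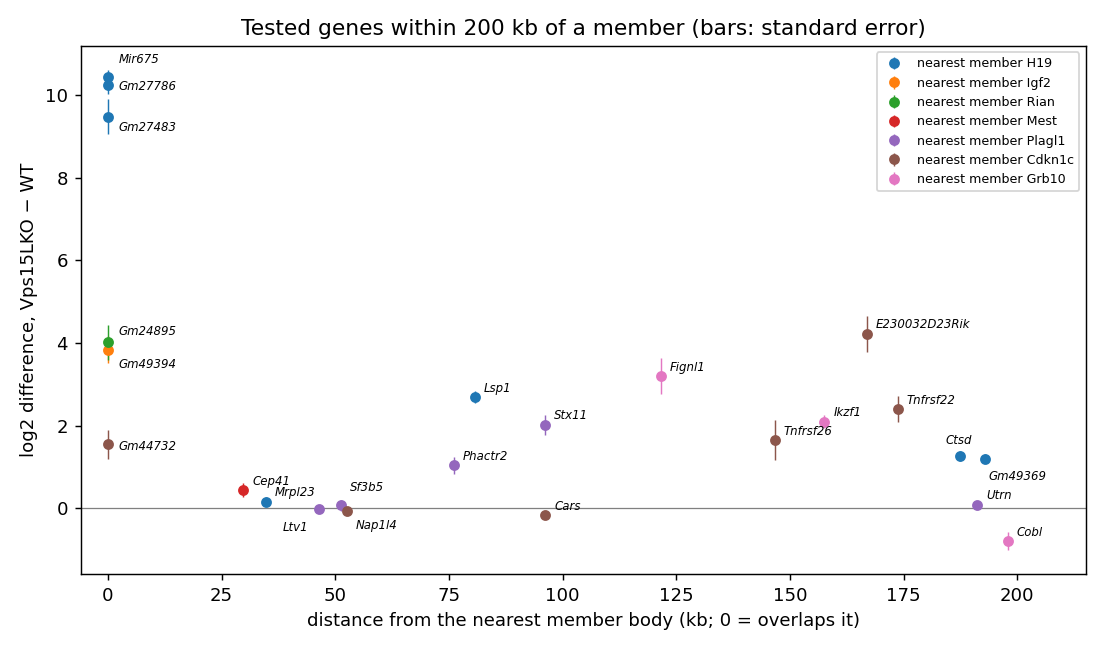
Log2 difference (Vps15LKO minus WT, bars show SE) of the 24 tested neighbours against the distance in kb from the nearest member body, coloured by that member, with listed imprinted genes left out. The 6 features at 0 overlap a member, the features in H19 lie above 9, and the 7 neighbours that were not called lie near 0.

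Among 51 other imprinted genes, 31 passed the filter, and 14 were called higher and 9 lower (45.2% and 29.0%, beside 33.5% and 33.0% of all tested genes) with a median log2 difference of −0.01, near that of all tested genes, −0.02. With total-read scaling 23 were higher and 2 lower, beside 66.8% and 11.1% of all tested genes. Phlda2, Asb4, Peg10 and Airn, 4 of the 14, were below 20 in every WT liver and passed the filter only through their Vps15LKO livers. Phlda2, which restrains placental growth and lies in the domain of Cdkn1c, had 7.96, 0 and 5.39 normalized counts in WT and 77.1, 64.8 and 103 in Vps15LKO livers, a log2 difference of 4.39 (SE 0.74). Log2 differences were 3.02 (SE 0.33) for Asb4, a ubiquitin ligase adaptor, 2.55 (SE 0.39) for Peg10, a retrotransposon-derived gene of the same domain, and 2.28 (SE 0.26) for Airn, the non-coding RNA antisense to Igf2r. Osbpl5, a lipid transfer protein, rose by 1.84 (SE 0.23, adjusted p = 1.6e-04, limma). The differences of these 5 were above 0 under each scaling. The list was drawn from known imprinted clusters, and whether each gene is imprinted in this liver was not measured.

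The falls among the other imprinted genes were led by transporters of mature hepatocytes. Slc38a4, an amino acid transporter, had 27891, 28934 and 21296 normalized counts in WT and 6333, 7205 and 4481 in Vps15LKO livers (log2 difference −2.13, SE 0.21, adjusted p = 3.9e-05, limma). Slc22a3, an organic cation transporter in the domain of Igf2r, fell by 1.72 on the log2 scale (SE 0.14, adjusted p = 1.8e-05, limma). With quantile normalization both were still called lower, Slc38a4 at −1.14 and Slc22a3 at −1.11. Mcts2 fell by 0.93, Zrsr1 by 0.80 and Ube3a by 0.75, and with total-read scaling these 3 were at −0.22, −0.07 and −0.03 and were no longer called. The summed hepatocyte markers were lower in the same livers.

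**Figure D4:**
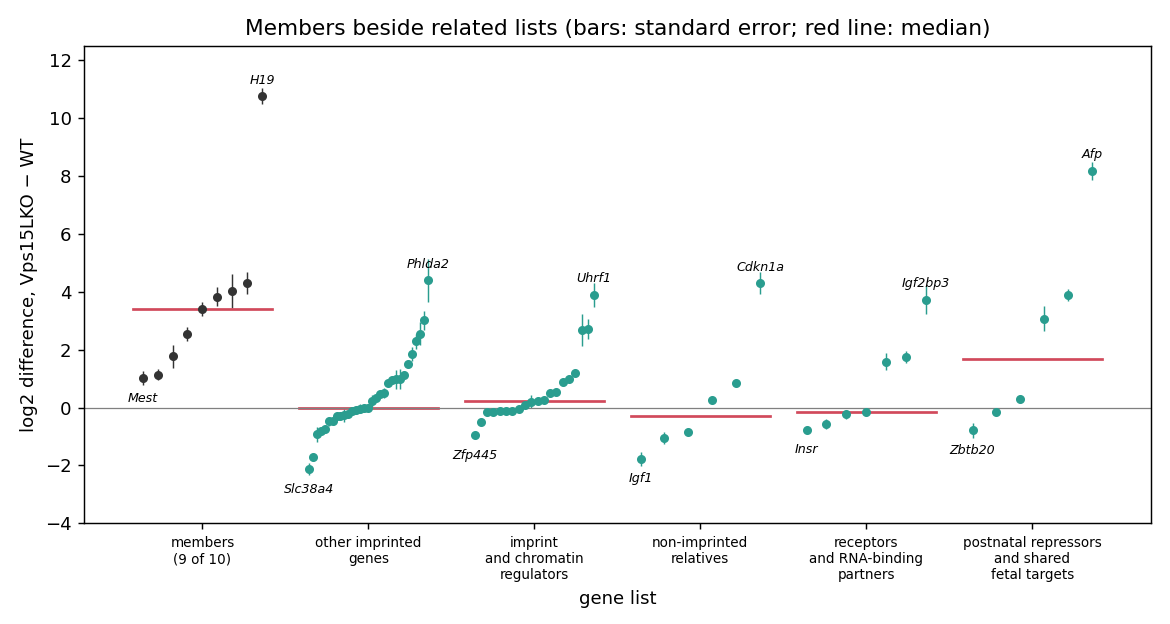
Log2 difference (Vps15LKO minus WT, bars show SE) of the 9 tested members and of the tested genes of 5 related lists, with a red line at each list's median and the highest and lowest gene named. The members, chosen on this contrast, run from 1.01 to 10.76, and the other lists hold genes on both sides of 0.

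Factors that set or keep imprint methylation and repressive chromatin were examined as a list of 24, of which 20 passed the filter. Of these 9 were higher and 2 lower, where 33.5% and 33.0% of all tested genes were called, with a median log2 difference of 0.22. With total-read scaling 18 were higher and 0 lower, where 66.8% and 11.1% of all tested genes were called. Of the 9, Uhrf1, Hells and Zfp57 passed the filter only through their Vps15LKO livers. Uhrf1, which brings the maintenance methyltransferase to newly copied DNA, had 6.63, 8.74 and 24.3 normalized counts in WT and 177, 157 and 223 in Vps15LKO livers (log2 difference 3.91, SE 0.41). Hells, a remodeller needed for DNA methylation, was at 2.68 (SE 0.56). Both are also expressed in dividing cells, and the summed proliferation markers were higher in the same livers and highest among WT livers in replicate 3, as Uhrf1 and Hells were and as the summed biliary, stellate, Kupffer and lymphocyte markers were.

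The zinc finger proteins that protect imprints lay on opposite sides of 0. Zfp57 had 6.63, 11.2 and 4.04 normalized counts in WT and 52.7, 44.6 and 53.0 in Vps15LKO livers, with a log2 difference of 2.71 (SE 0.36), and Zfp445 fell by 0.95 on the log2 scale (SE 0.12, adjusted p = 1.2e-04, limma), or by 0.23 with total-read scaling, where it was not called. Ehmt1, a histone H3 lysine methyltransferase, fell by 0.48 (SE 0.11, adjusted p = 0.0041, limma) but stood at 0.24 with total-read scaling. Methylation itself was not measured, and RNA of this kind does not tell the parental copies apart.

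The non-imprinted relatives of the members lay on both sides of 0. Of 8 genes 6 passed the filter, and 2 were higher and 3 lower, where 33.5% and 33.0% of all tested genes were called, with a median log2 difference of −0.28. Total-read scaling gave 3 higher and 1 lower, where 66.8% and 11.1% of all tested genes were called. Igf1, the postnatal counterpart of Igf2, had 13108, 12131 and 15397 normalized counts in WT and 3937, 5698 and 2715 in Vps15LKO livers (log2 difference −1.78, SE 0.25, adjusted p = 2.6e-04, limma). Per kb of exon, Igf2 was 0.00175, 0.00463 and 0.00318 times Igf1 in WT and 0.153, 0.0802 and 0.278 times in Vps15LKO livers, so Igf1 remained the more abundant transcript in all 6. With quantile normalization Igf1 was at −0.95 and still called. Cdkn1a, the inhibitor p21 related to Cdkn1c, had 34.5, 40.0 and 115 in WT and 1037, 999 and 1231 in Vps15LKO livers (log2 difference 4.30, SE 0.39, adjusted p = 2.5e-05, limma). Per kb, Cdkn1c was 2.08, 2.07 and 0.533 times Cdkn1a in WT and 0.177, 0.158 and 0.111 times in Vps15LKO livers. Cdkn1b, p27, was at 0.27 (SE 0.11, adjusted p = 0.053, limma).

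The adaptors related to Grb10 went the other way. Grb14, the insulin receptor adaptor of adult liver, fell by 0.83 on the log2 scale (SE 0.12, adjusted p = 3.1e-04, limma) and Grb7 by 1.05 (SE 0.21, adjusted p = 0.0022, limma), and with total-read scaling they were at −0.10 and −0.32 and were not called. With quantile normalization Grb7 was at −0.63. Per kb of exon, Grb10 was 0.0331, 0.0325 and 0.0465 times Grb14 in WT and 0.678, 0.495 and 1.05 times in Vps15LKO livers, a ratio that a single factor per library cannot move. Plagl2, the relative of Plagl1, rose by 0.85 (SE 0.11, adjusted p = 2.2e-04, limma).

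The receptors and RNA-binding partners of the network formed a list of 11, of which 7 passed the filter, and 3 were higher and 2 lower (42.9% and 28.6%, beside 33.5% and 33.0% of all tested genes), with a median log2 difference of −0.15. With total-read scaling 5 were higher and 0 lower, where 66.8% and 11.1% of all tested genes were called. A filter of 20 in every liver left 1 of them higher. Igf1r, through which Igf2 signals, had 43.8, 52.5 and 48.5 normalized counts in WT and 152, 135 and 214 in Vps15LKO livers (log2 difference 1.75, SE 0.20, adjusted p = 8.3e-05, limma). Insr, the insulin receptor, fell by 0.76 on the log2 scale (SE 0.12, adjusted p = 5.0e-04, limma) and was at −0.03 with total-read scaling and −0.43 with quantile normalization. Per kb, Igf1r was 0.0183, 0.0187 and 0.0223 times Insr in WT and 0.0963, 0.0936 and 0.161 times in Vps15LKO livers. Igf2r, which clears Igf2 and is itself imprinted, is named after its value was seen and rose by 0.84 (SE 0.10, adjusted p = 1.0e-04, limma).

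Igf2bp3, an oncofetal protein that binds Igf2 RNA, had 15.9, 17.5 and 72.8 normalized counts in WT and 370.4, 401 and 352 in Vps15LKO livers (log2 difference 3.72, SE 0.49), and Igf2bp2 was at 1.59 (SE 0.29). Both passed the filter only through their Vps15LKO livers. WT replicate 3 was again the highest of its group for both. Irs1, an insulin receptor substrate, was at −0.57 (SE 0.18, adjusted p = 0.018, limma), but its call was lost without Vps15LKO replicate 1 (−0.53, adjusted p = 0.062), Vps15LKO replicate 3 (−0.42, adjusted p = 0.060) or WT replicate 3 (−0.48, adjusted p = 0.055), and with total-read scaling it stood at 0.15. Irs2 at −0.23 (adjusted p = 0.218) and the receptor Notch1 at −0.15 (adjusted p = 0.352) did not pass in limma. With total-read scaling they stood at 0.50 and 0.57 and were called higher.

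Zhx2, Zbtb20 and Zfhx3 are zinc finger and homeobox proteins known for holding down fetal liver genes after birth, among them Afp and, for Zhx2, also H19, Gpc3 and Lpl. Zhx2 had 461, 479.7 and 403 normalized counts in WT and 389, 430.3 and 389.7 in Vps15LKO livers, which overlap (log2 difference −0.15, SE 0.10, adjusted p = 0.230, limma). With total-read scaling it stood at 0.57 and was called higher, as were 66.8% of all tested genes. Zfhx3 was at 0.30 (SE 0.13, adjusted p = 0.073, limma), and was called without WT replicate 2 (0.43, adjusted p = 0.016). Zbtb20 had 1809, 2318 and 3997 in WT and 1583, 1340.3 and 1544 in Vps15LKO livers (−0.78, SE 0.25, adjusted p = 0.022, limma), and was not called without Vps15LKO replicate 2 (−0.71, adjusted p = 0.056), with quantile normalization (−0.39, adjusted p = 0.209) or with total-read scaling (−0.06, adjusted p = 0.849). Without WT replicate 3, the highest liver for Zbtb20, it was called at −0.46.

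The 3 known targets rose, in a list chosen with earlier results of these data known. Afp, the fetal counterpart of albumin, had 30.5, 31.2 and 63.4 normalized counts in WT and 12302, 8297 and 15643 in Vps15LKO livers (log2 difference 8.18, SE 0.31, adjusted p = 4.2e-07, limma). Gpc3, an oncofetal proteoglycan, rose by 3.89 (SE 0.20, adjusted p = 1.7e-06, limma), and Lpl, lipoprotein lipase, by 3.07 (SE 0.43, adjusted p = 2.7e-04, limma). Per kb of exon, H19 was 0.595, 0.438 and 0.524 times Afp in WT and 3.60, 3.77 and 2.43 times in Vps15LKO livers, so H19 exceeded Afp in each Vps15LKO liver and in no WT liver. Over this list of 6, 3 were higher and 1 lower, where 33.5% and 33.0% of all tested genes were called, with a median log2 difference of 1.69. With total-read scaling 5 were higher and 0 lower, where 66.8% and 11.1% of all tested genes were called. Afp and Gpc3 had the liver order of Igf2, Meg3 and Rian within Vps15LKO, replicate 3 highest and replicate 2 lowest, which is also that of the biliary markers.

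The genes whose profile over the 6 livers lay nearest to H19, by the root mean square difference of centred log2 values and without genes that overlap H19, were Slc7a11 (0.390), Tekt5 (0.413), Elovl7 (1.22), Gpnmb (1.29) and Afp (1.31). Slc7a11, the cystine transporter, and Tekt5 were listed at 0 in the 3 WT livers and reached 1814, 1489 and 2269, and 1405, 1161 and 1386, in the Vps15LKO livers. No other member was among these 5 genes. The likeness rests on 6 livers in 2 groups, so it mostly reflects the size of the difference between them.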

How the data were processed

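Polyadenylated liver RNA of 3 WT and 3 Vps15LKO mice was sequenced, 1 library per mouse, and the labels give genotype and replicate number. The authors used SOAPnuke for filtering, HISAT2 for mapping (GRCm38), featureCounts for counting and DESeq2 for size factors, and the deposited values are a signal, counts over size factor, for 56305 genes. Versions, strand and multi-mapping settings are not given in the sources used here. Whole reads were recovered, since 100% of the values in every library were multiples of that of 1 read (tolerance 0.001). Symbols and coordinates are those of GENCODE M21 (GRCm38), which matched 55227 genes.

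Deposited values were compared as log2(normalized count + 1) with limma 3.58.1 (R 4.3.3, lmFit and trended eBayes), and p was adjusted by Benjamini-Hochberg over 15430 genes. With 3 livers against 3, the smallest exact permutation p for 1 gene is 0.1. On the recovered reads, edgeR 4.0.16 called 5170 genes higher and 5150 lower. Alternatives were pseudocounts of 0.1 and 10, other filters and scalings, limma without a trend, voom, edgeR, DESeq2 1.42.0, each liver left out and the replicate number as a block. The replicate numbers are not tied to litters, and same-numbered livers did not deviate together (correlations −0.01, −0.01 and 0.05), so no block was used. Replicates of a genotype differed beyond sampling noise (chi-square per gene from 14.0 to 36.4).

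The members and gene lists were chosen with earlier results of these data known. Named were the 10 members, the 5 largest rises and falls among other imprinted genes, the 3 largest among regulators, every tested gene of the 3 short lists, the 5 largest changes among neighbours, microRNA genes with reads, Pik3r4 and the 5 genes most like H19, the called ones without overlap between genotypes. Others are said to be named after their values were seen. A further list of markers is not reported here. Ratio intervals use summed reads and cover counting error only. Python 3.11.15, pandas 2.3.3 and matplotlib 3.10.9 made the tables and plots.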

Additional observations from a re-analysis of the deposited data

How the results depend on the processing

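The 168 alternative values of the 9 tested members never changed direction, and 10 of them, 8 under total-read scaling, moved by more than the spread between livers. Total-read scaling changed most else. With it 10301 genes were called higher and 1710 lower, and higher and lower calls were 23 and 2 for the other imprinted genes, 18 and 0 for the regulators, 5 and 0 for the receptors and partners and 5 and 0 for the repressors and fetal targets, with 1 relative and 0 neighbours lower. It reversed Ehmt1 (0.24) and Irs1 (0.15), which were not called there, and Notch1 (0.57), Irs2 (0.50) and Zhx2 (0.57), which were called higher there. A filter of 20 in every liver, which tests fewer genes, left 1 receptor or partner and 6 neighbours higher. A window of 500 kb gave 25 neighbours higher and 13 lower, leaving out features that overlap a member gave 10 higher, and including the listed imprinted genes gave 3 lower. Quantile normalization left 9 members without overlap, Mest overlapping, and 0 of the repressors lower, the cause of which was not tested. With each liver left out, between 1 and 2 receptors or partners were lower, 1 without Vps15LKO replicate 1, Vps15LKO replicate 3 or WT replicate 3, and between 0 and 1 of the repressors, 0 without Vps15LKO replicate 2. Cdkn1b was called with TMM, quantile or total-read scaling, with voom and without WT replicate 2, and Zfhx3 with total-read scaling (1.03) and without WT replicate 2. With the replicate number as a block, 5065 genes were called higher and 4983 lower, and no list count moved beyond 1.5 times. Depth limits Dlk1 and the microRNA genes, which rest on few reads.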

Other observations

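Within the domain of Cdkn1c, the non-coding RNA Kcnq1ot1 averaged 45.8 ± 24.6 normalized counts over the WT and 86.3 ± 20.3 over the Vps15LKO livers (SD, n = 3). It was called higher (log2 difference 0.995, SE 0.34, adjusted p = 0.030, limma), although WT replicate 3 exceeded Vps15LKO replicate 2, and the call was lost without Vps15LKO replicate 1 (1.01), Vps15LKO replicate 3 (0.82), WT replicate 1 (0.83) or WT replicate 2 (0.76) and with quantile normalization (0.43). Kcnq1, the host of Kcnq1ot1, was at 0.97 (SE 0.33, adjusted p = 0.027, limma), with 76.4, 72.9 and 173 normalized counts in Vps15LKO livers. Its call was lost without Vps15LKO replicate 3 (0.57) or any 1 of the WT livers (0.83 to 1.05), with voom (0.99) and with quantile normalization (0.45). Slc22a18 fell by 0.47 (SE 0.12, adjusted p = 0.0095, limma) but stood at 0.26 with total-read scaling and −0.08 with quantile normalization, where it was not called, and Tssc4 was at −0.04 (adjusted p = 0.820, limma), so tested genes of this domain lay on both sides of 0 beside Phlda2 and Osbpl5. Dcn, a proteoglycan of stellate and other mesenchymal cells in the list of other imprinted genes, rose by 0.95 (SE 0.11, adjusted p = 1.2e-04, limma). The 7 stellate markers were higher in the same livers. Dnmt1, the maintenance methyltransferase, rose by 1.2 (SE 0.10) and Dnmt3a by 0.88 (SE 0.14), both called by limma, while Dnmt3b was at 0.21 (adjusted p = 0.441, limma). These genes were named after their values were seen.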
